A study of Mus musculus with 11 samples.

Results

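The regions described here are the broad acetylated promoters of protein-coding genes that carry no RBPJ site in Beko, a line of mouse pre-T cells. They are the regions of the authors' table of histone H3 lysine 27 acetylation (H3K27ac) that cover a transcription start site of an NM_ transcript, have no overlap with RBPJ and are at least 3000 bp wide. Of 56342 regions, 1609 met these conditions, at 1589 gene symbols. They are 2.86% of the regions and hold 19.7% of the summed base mean, the normalised read count averaged over libraries.

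The study asked how H3K27ac changes when histone deacetylases or Notch signalling are blocked, and where RBPJ binds. Cells were treated for 24 h and profiled by chromatin immunoprecipitation and sequencing (ChIP-seq). The groups used here are H3K27ac after apicidin at 0.01 mg/ml, H3K27ac after DAPT at 10 mg/ml, and H3K27ac after DMSO, the solvent control, with 2 libraries each and the doses as labelled. The remaining libraries are 2 for RBPJ in DMSO cells and 1 input per treatment. Apicidin inhibits histone deacetylases, and the labels call it an HDAC3 inhibitor. DAPT is a gamma-secretase inhibitor (GSI), which stops the cleavage that frees the active part of a Notch receptor. All groups come from the same cell line, which limits them as a model of developing T cells in a thymus. The labels do not say whether the libraries of a group are separate cultures, so every p-value reflects the spread between libraries that may be technical replicates.

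H3K27ac marks active promoters and enhancers. Acetyltransferases add it, histone deacetylases remove it, and bromodomain proteins read it. At most active genes the mark sits in a short stretch on either side of the start site, and at some genes, among them many that define a cell type, it spreads over a long domain. RBPJ binds DNA and recruits the cleaved Notch fragment to its target genes.

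The authors' deposited table gives a fold change and its standard error (SE) for each treatment and no value per library, so the values of single libraries cannot be shown and depth per library is unknown. The fold changes are taken as relative to DMSO, the only control in the labels. Counts were normalised by the authors, so higher and lower mean relative to the other regions. Both comparisons share the DMSO libraries. For apicidin all 56342 regions have an adjusted p, and for GSI 25756 do, those with a base mean of 72.1 or more. All 1609 broad promoters have one in both. Of 1609 broad promoters, 1585 had a transcript accession in the RefSeq gene table, and all 1585 are annotated as protein-coding there. The rule took only NM_ accessions, which RefSeq gives to protein-coding transcripts, so this annotation was fixed in advance. Broad promoters with no accession there were not checked. The T-lineage label held, since 7 of 10 T-lineage markers (Bcl11b, Cd3e, Cd3g, Gata3, Lck, Ptcra and Tcf7) have a broad promoter of this kind. None of the defining B-lineage (0 of 5), myeloid (0 of 6), erythroid and megakaryocyte (0 of 5), natural killer and innate lymphoid (0 of 5), neuronal (0 of 4) or fibroblast and epithelial (0 of 5) markers does.

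The promoter sequences of the strongest responders show how different these start sites are in base composition. The 250 bases before the start are given for the 2 highest and the 2 lowest broad promoters with each treatment, chosen among those of at least median base mean whose gene has exactly 1 start in the RefSeq promoter table (GRCm38.p6, a later build than the mm9 of the regions). Slc9a9 was among the highest with both treatments (chr9:94669642-94669891, plus strand). Etv3 (chr3:87525328-87525577, plus strand) was also among the highest with apicidin, and Coro7 (chr16:4679721-4679970, minus strand) with GSI. Ino80 (chr2:119477688-119477937, minus strand) and Zc3h6 (chr2:128967152-128967401, plus strand) were among the lowest with apicidin, and Dtx1 (chr5:120711670-120711919, minus strand) and Ptcra (chr17:46763713-46763962, minus strand) with GSI. Capitals mark matches, on either strand, to 7 motifs, which are the GC box GGGCGG, the NF-Y motif CCAAT, the TATA-box motif TATAAA, the ETS-factor motif CCGGAAG, the cyclic-AMP response motif TGACGT, the E-box motif CACGTG and the RBPJ core TGGGAA. Every sequence reads 5′ to 3′ on the gene's strand.
Slc9a9: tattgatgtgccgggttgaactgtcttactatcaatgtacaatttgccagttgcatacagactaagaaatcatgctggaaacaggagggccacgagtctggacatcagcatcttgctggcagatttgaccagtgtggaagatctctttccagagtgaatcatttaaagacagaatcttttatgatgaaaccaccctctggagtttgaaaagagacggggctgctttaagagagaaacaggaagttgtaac
Etv3: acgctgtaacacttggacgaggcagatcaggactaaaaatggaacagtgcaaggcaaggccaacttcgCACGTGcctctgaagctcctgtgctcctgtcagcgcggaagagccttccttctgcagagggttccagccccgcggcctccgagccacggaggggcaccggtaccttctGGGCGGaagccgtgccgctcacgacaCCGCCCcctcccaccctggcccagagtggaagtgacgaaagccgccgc
Coro7: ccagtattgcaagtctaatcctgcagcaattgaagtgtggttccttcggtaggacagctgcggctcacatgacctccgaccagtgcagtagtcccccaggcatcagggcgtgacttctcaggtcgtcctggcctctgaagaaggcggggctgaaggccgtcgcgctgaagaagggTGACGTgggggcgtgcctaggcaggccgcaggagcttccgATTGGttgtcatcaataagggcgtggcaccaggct
Ino80: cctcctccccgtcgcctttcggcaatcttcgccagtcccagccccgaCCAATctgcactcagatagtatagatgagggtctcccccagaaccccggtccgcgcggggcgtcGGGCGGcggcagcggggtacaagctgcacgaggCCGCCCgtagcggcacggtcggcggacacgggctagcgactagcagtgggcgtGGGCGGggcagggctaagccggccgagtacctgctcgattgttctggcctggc
Zc3h6: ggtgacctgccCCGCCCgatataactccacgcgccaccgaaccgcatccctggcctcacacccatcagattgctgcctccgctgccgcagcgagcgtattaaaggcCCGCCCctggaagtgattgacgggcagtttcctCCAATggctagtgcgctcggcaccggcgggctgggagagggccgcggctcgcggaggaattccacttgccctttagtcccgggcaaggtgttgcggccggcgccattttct
Dtx1: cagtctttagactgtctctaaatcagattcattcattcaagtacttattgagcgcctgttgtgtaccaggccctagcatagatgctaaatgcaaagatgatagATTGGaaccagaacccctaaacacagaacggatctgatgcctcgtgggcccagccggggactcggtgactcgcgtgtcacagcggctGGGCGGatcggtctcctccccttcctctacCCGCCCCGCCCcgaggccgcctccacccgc
Ptcra: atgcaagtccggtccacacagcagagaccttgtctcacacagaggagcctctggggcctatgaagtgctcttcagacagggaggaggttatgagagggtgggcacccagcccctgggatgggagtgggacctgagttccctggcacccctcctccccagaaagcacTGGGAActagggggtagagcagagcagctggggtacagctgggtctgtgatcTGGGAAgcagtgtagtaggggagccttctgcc
The Ino80 and Zc3h6 stretches hold 28 and 24 CpG dinucleotides and both carry GC boxes and a CCAAT motif. The Slc9a9 and Ptcra stretches hold 3 and 1 CpG dinucleotides. Slc9a9 carries none of the 7 motifs there, and Ptcra carries 2 copies of TGGGAA although its region has no RBPJ overlap. In the Dtx1 stretch, 2 of the GC boxes overlap each other. A match is a description of letters and does not show that a factor binds.

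Across all broad promoters, start sites were rich in CpG. The promoter table (300 bases, 250 before to 50 after the start) had an entry for 1301 of the 1609 (80.9%). Their median GC content was 62.0% and their median ratio of observed to expected CpG was 0.77, against 52.8% and 0.39 over the 27025 genes of the table. Narrow coding promoters without RBPJ had 60.3% and 0.78, so breadth and CpG content did not go together in these medians. GGGCGG was present in 64.6% of broad promoters, against 64.6% of narrow ones and 35.6% of all genes, each gene counted by the share of its starts with a match. CCGGAAG was present in 16.6%, against 22.6% and 9.07%, and TATAAA in 7.37%, against 6.05% and 14.2%. CCAAT was found in 35.5%, against 39.8% and 37.8%, and TGACGT in 10.8%, against 13.3% and 7.51%. CACGTG was found in 9.82%, against 9.66% and 7.13%. TGGGAA, the RBPJ core, was found in 19.9%, against 21.8% in narrow promoters and 25.6% in all genes.

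With apicidin, broad promoters split into a larger group that lost H3K27ac and a smaller group that gained it. In the authors' deposited table, 311 of 1609 (19.3%) were higher and 589 (36.6%) lower at an adjusted p under 0.05, against 9.69% higher and 14.1% lower of all regions. Most regions are much weaker, and among the 8868 other regions that reach the lowest base mean of a broad promoter 18.3% were higher and 38.2% lower, close to the shares of broad promoters. The remaining 709 broad promoters were not called. The median log2 fold change was -0.09 (quartiles -0.32 and 0.14), and the median was 0.42 among the called increases and -0.40 among the called decreases. The split depends on where 0 is set: after centring on the regions of at least median base mean, 447 were higher and 406 lower, against 12.7% higher and 10.4% lower of all regions. Large changes were rare: a log2 fold change of 1 or more in size occurred at 8 higher and 7 lower broad promoters (0.932%), against 6.23% of all regions and 3.53% of those 8868 in either direction. Precision was high at these strong regions, with a median SE of 0.086, against 0.31 over all regions. For 1015 broad promoters the 95% interval of the apicidin change lay within 0.5 of 0 on the log2 scale, among them 703 of the 709 that were not called.

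Set beside the other classes, broad promoters without RBPJ lay between narrow promoters and broad regions off a start site. Of 4965 narrow coding promoters without RBPJ, 203 (4.09%) were higher and 1968 (39.6%) lower with apicidin, with a median log2 fold change of -0.28, in the authors' deposited table. Of 281 broad coding promoters with RBPJ, 36 (12.8%) were higher and 136 (48.4%) lower, with a median of -0.18. Broad regions off a start site leaned to gains, with 954 of 2778 (34.3%) higher, 722 (26.0%) lower and a median of 0.05. Centring moved the medians of broad and narrow promoters to 0.0098 and -0.18. It subtracts the same value from every region, so it could not change their order. Removing the trend over base mean moved the medians to 0.05 and -0.16, and broad promoters stayed above narrow ones. Regions are not replicates of a treatment, so no test was made between these classes.

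**Figure D1:**
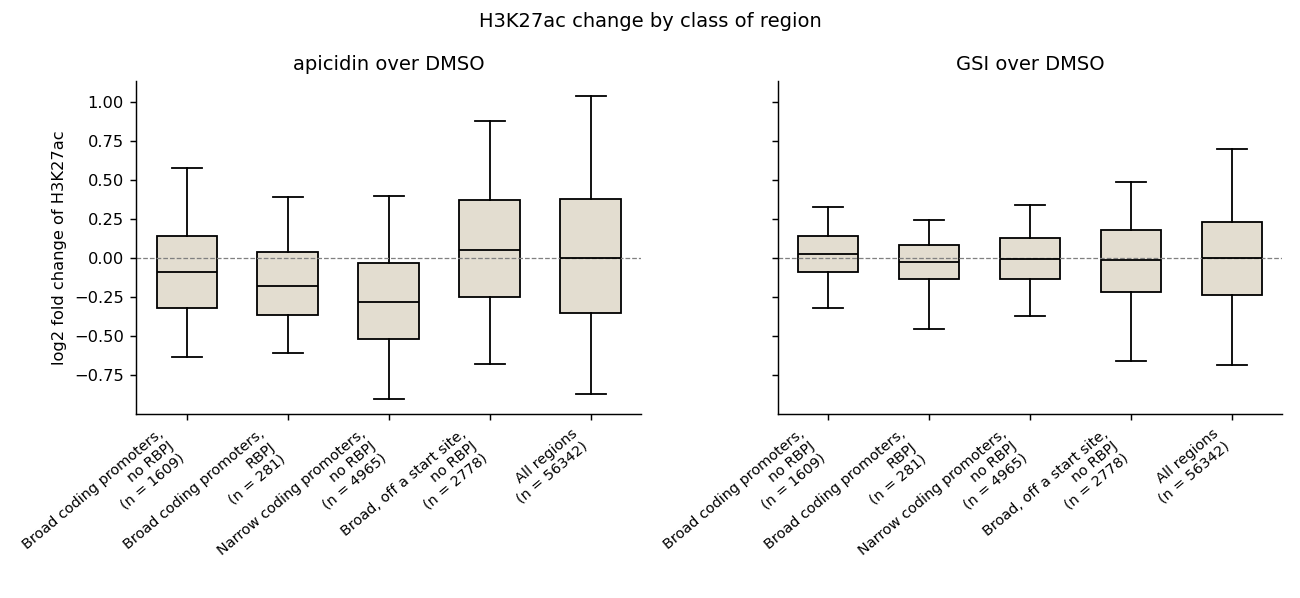
Log2 fold change of H3K27ac over DMSO (vertical axis) for broad coding promoters without RBPJ and 4 other classes of region, with apicidin at left and GSI at right. Boxes span the quartiles with the median as a line, and whiskers reach the 5th and 95th percentiles over regions. With apicidin the median of broad promoters is -0.09, above the -0.28 of narrow promoters and below the 0.05 of broad regions off a start site, and with GSI the medians of all classes lie close to 0.

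Among the broad promoters themselves, signal per length and width went with the direction of the apicidin change. Divided into 5 groups by base mean per kb, the sparsest 322 had 112 higher and 34 lower, and a median log2 fold change of 0.12. The densest 322 had 22 higher and 238 lower, and a median of -0.38. The groups between them had medians of 0.0057, -0.09 and -0.17. Other classes cut at the same base means per kb showed this fall too. From the sparsest to the densest group the medians went from 0.10 to -0.37 in broad coding promoters with RBPJ. In broad regions off a start site they went from 0.15 to -0.24, and over all regions from 0.06 to -0.45. By width, the narrowest 323 (3002 to 3419 bp) had 25 higher and 152 lower with a median of -0.23, and the widest 322 (6709 to 39083 bp) had 113 higher and 76 lower with a median of 0.05. Spearman's rho with the apicidin change was -0.48 for base mean per kb and 0.26 for width over the 1609 regions, and 0.09 between the 2 measures. These are descriptions: width, base mean and fold change come from the same reads, and the sources used here do not give the libraries that served to call regions. The part of region calling in this pattern was not tested.

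Density and width each kept their order within levels of the other. Among the 178 narrowest and densest of 9 cells, 0 were higher by DESeq2 (1 at an unadjusted p under 0.05) and 144 lower with apicidin, with a median of -0.41. Among the 134 widest and sparsest, 66 were higher and 16 lower, with a median of 0.19. In groups cut at the same base means per kb, broad promoters still lay above narrow ones. In the 5 density groups the medians of broad and narrow promoters were 0.12 and -0.14, 0.0057 and -0.25, -0.09 and -0.34, -0.17 and -0.43, and -0.38 and -0.58. The sparsest group has no lower limit, and narrow promoters reach down to 41.4 per kb there, against 98.7 for broad ones. The order by density held after removing the trend over base mean, with medians of 0.29 in the sparsest and -0.26 in the densest group. Centring gave 0.22 and -0.28, but it moves every group alike and could not change the order. The CpG ratio showed a smaller slope. In its lowest group of 261 broad promoters 80 were higher and 70 lower with a median of 0.02, and in its highest group of 260 there were 19 higher and 130 lower with a median of -0.20. Across those groups, lowest to highest, median width fell from 4728 to 4047.5 bp and median base mean per kb rose from 248 to 286. The CpG ratio rests on the 1301 matched promoters, and only 74.9% of those higher with apicidin matched. A comparison of base composition for that set is therefore void, and the counts of higher promoters by CpG group share this limit.

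**Figure D2:**
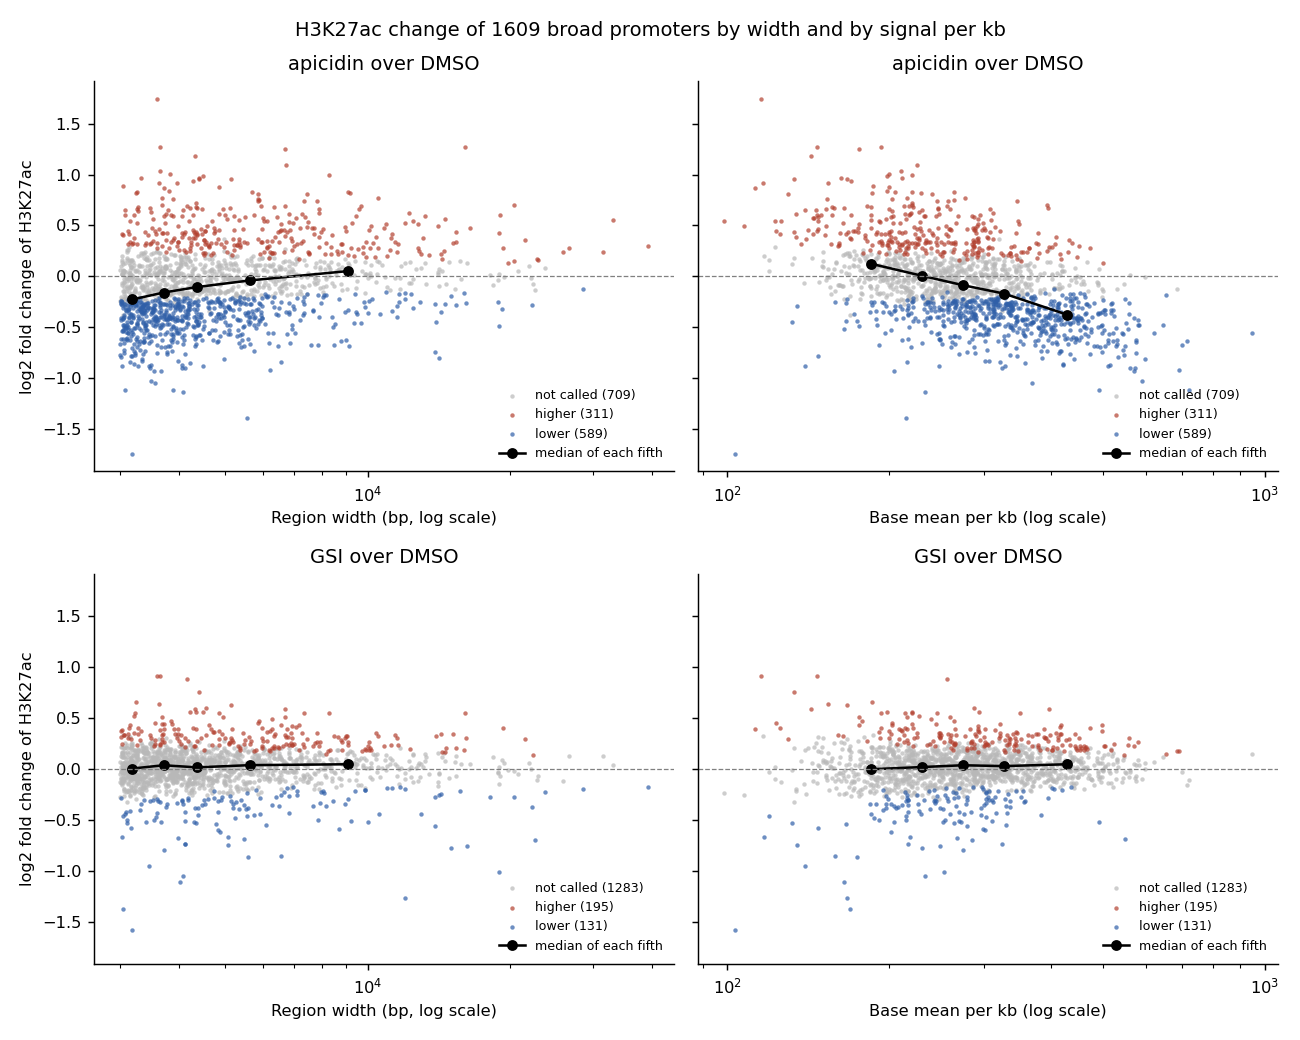
Log2 fold change over DMSO (vertical axis) of each of the 1609 broad promoters against region width in bp (left, log axis) and against base mean per kb (right, log axis), with apicidin in the upper and GSI in the lower row. Red points are called higher, blue lower and grey not called, and black points join the medians of 5 equal groups. With apicidin the medians fall to -0.38 in the densest group, against 0.12 in the sparsest, whereas with GSI they stay between -0.0024 and 0.05.

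The largest apicidin gains were first read among broad promoters of at least median base mean. The authors' deposited table gave Slc9a9, an endosomal sodium-proton exchanger gene, a log2 fold change of 1.28 ± 0.061 SE (adjusted p = 1.75e-91) over chr9:94567139-94583216 (mm9). Etv3, which encodes an ETS-family repressor, rose by 1.09 ± 0.078 (adjusted p = 5.31e-42) at chr3:87328326-87335040, and Coro7, a coronin gene, by 0.99 ± 0.076 (adjusted p = 3.35e-36) at chr16:4672276-4680574, in the authors' deposited table. These 3 regions are wide and sparse, with 192.9, 225 and 221 base mean per kb against a median of 274 for all broad promoters. The next 5 in the authors' deposited table lay between 0.75 and 0.82. They were Gzma (granzyme A, 0.82 ± 0.068), Il12rb1 (a subunit of the interleukin-12 receptor, 0.82 ± 0.073), Esm1 (endocan, 0.81 ± 0.093), Gimap9 (a lymphocyte GTPase, 0.77 ± 0.067) and Ppp1r18 (phostensin, 0.75 ± 0.075). All of these 8 except Il12rb1 (0.18 ± 0.076) and Esm1 (0.10 ± 0.096) were also called higher with GSI in the authors' deposited table.

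The lowest apicidin values among broad promoters of at least median base mean included 3 genes of chromatin and chromosome structure. Ino80, the ATPase of a nucleosome remodeller, had a log2 fold change of -1.12 ± 0.080 (adjusted p = 3.02e-41) with apicidin at chr2:119301635-119304708 in the authors' deposited table. Arid1b, a subunit of the BAF remodeller, had -0.90 ± 0.083 (adjusted p = 6.37e-25) at chr17:4993522-4997569, and the cohesin subunit gene Rad21 -1.03 ± 0.13 (adjusted p = 1.96e-13) at chr15:51819878-51823357, by the authors' deposited table. With GSI the 3 values there were -0.11 ± 0.080, -0.09 ± 0.083 and -0.10 ± 0.13, none of them called. The others among the 8 lowest in the authors' deposited table were Zbed3 (-1.12 ± 0.076), Xkr5 (-1.05 ± 0.084), the zinc finger gene Zc3h6 (-0.93 ± 0.072), the arrestin-domain gene Arrdc3 (-0.92 ± 0.061) and the small GTPase gene Rab44 (-0.90 ± 0.081). Except for Xkr5 and Rab44, at 368 and 325, they held between 491 and 724 base mean per kb.

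Broad promoters below median base mean reached further still. Among those that changed by at least 1 on the log2 scale with apicidin, the extremes in the authors' deposited table were Cd53, a tetraspanin of leukocytes, at 1.74 ± 0.14 (base mean 414) and Gm266 at -1.74 ± 0.14 (base mean 328). Gm266 had the lowest base mean of all broad promoters, and it also fell with GSI (-1.59 ± 0.15) in the authors' deposited table. The others above 1 there were Tuba8 (1.27 ± 0.12), Gimap1 (1.25 ± 0.085), Sema4a (1.18 ± 0.11), Flt3l (1.03 ± 0.11) and Gimap7 (1.00 ± 0.10), and the others below -1 Pkdcc (-1.39 ± 0.093) and Hhipl2 (-1.14 ± 0.093). Hhipl2 lies on an unplaced part of chromosome 1 (1_random) and also fell with GSI (-1.05 ± 0.097) in the authors' deposited table.

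**Figure D3:**
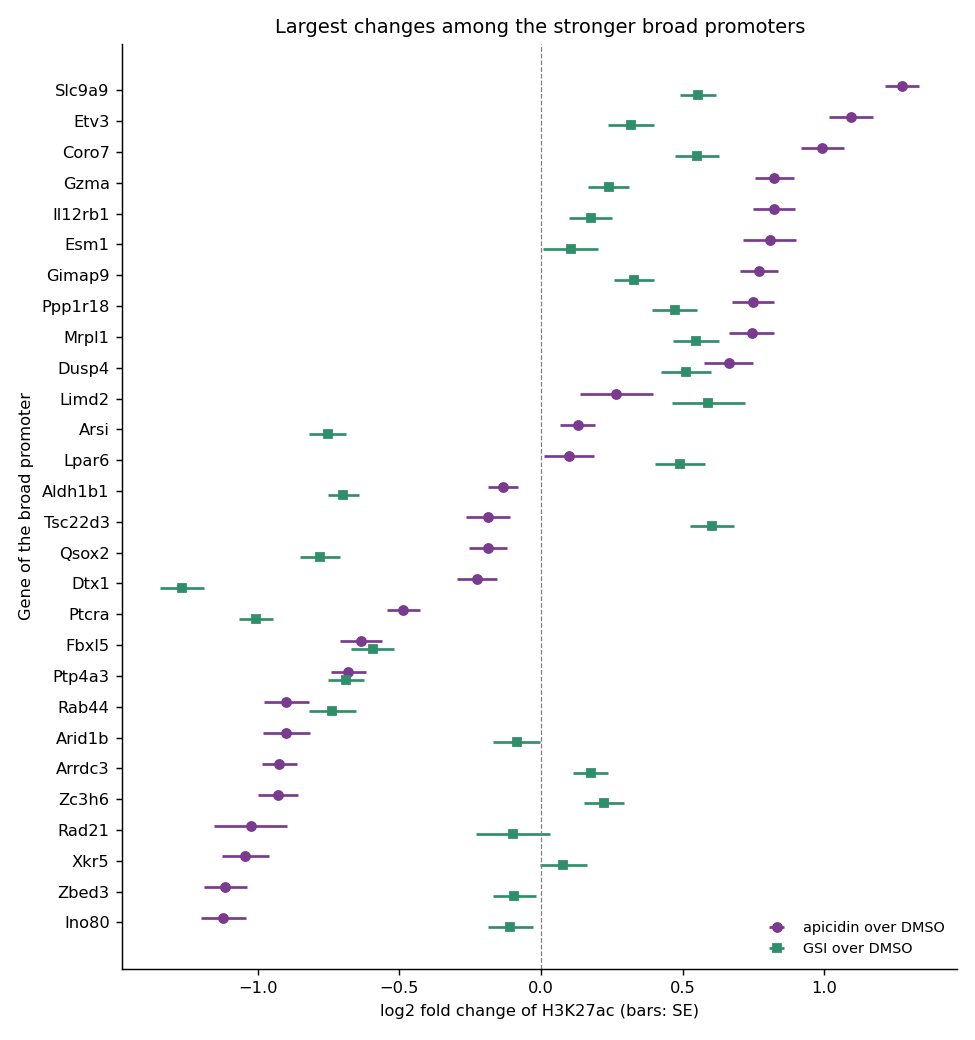
Log2 fold change over DMSO (horizontal axis; bars are the SE) for the 8 highest and 8 lowest broad promoters per treatment among those of at least median base mean, with apicidin as circles and GSI as squares. Regions are ordered by the apicidin change, from Slc9a9 at 1.28 to Ino80 at -1.12. Dtx1 and Ptcra have the lowest GSI values, -1.27 and -1.01.

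GSI changed fewer broad promoters, with more gains than losses at an adjusted p under 0.05. With a log2 change of 0.5 or more also required, 22 (1.37%) were higher and 35 (2.18%) lower. The share of all regions at that limit was not counted. The authors' deposited table called 195 of 1609 (12.1%) higher and 131 (8.14%) lower, against 6.62% higher and 7.17% lower of all tested regions and 10.6% and 11.4% of the 8868 stronger other regions. The remaining 1283 were not called, and for 1439 the 95% interval lay within 0.5 of 0. The median log2 fold change was 0.03. Subtracting the trend over base mean made the counts more even, at 156 higher and 144 lower. By DESeq2, 0 broad promoters rose by 1 or more on the log2 scale (0 at an unadjusted p under 0.05) and 6 fell by that much (0.373%), against 1.17% of all tested regions and 1.06% of the 8868. Those 6 were Gm266, Sertad4 (-1.37 ± 0.22), Dtx1, the sodium channel subunit gene Scn4b (-1.11 ± 0.11), Hhipl2 and Ptcra in the authors' deposited table. In the authors' deposited table, narrow coding promoters without RBPJ had 127 higher and 128 lower of 4724 tested, and broad coding promoters with RBPJ had 24 higher and 31 lower of 281. The GSI change showed little relation to width (rho 0.05) or to base mean per kb (rho 0.09), although the densest group of 322 held 59 higher and 8 lower.

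Among broad promoters of at least median base mean, the 2 lowest GSI values were at Dtx1 and Ptcra, known Notch target genes of early T cells. Dtx1, which encodes the Deltex ubiquitin ligase, had a log2 fold change of -1.27 ± 0.077 (adjusted p = 2.90e-58) over 11980 bp at chr5:121154075-121166054 in the authors' deposited table. Ptcra, the pre-T-cell receptor alpha chain gene, had -1.01 ± 0.060 (adjusted p = 4.28e-60) over 18962 bp at chr17:46892804-46911765 in the authors' deposited table. With apicidin the authors' deposited table gave -0.23 ± 0.071 for Dtx1 and -0.49 ± 0.058 for Ptcra, both called lower. The difference between the treatments passed the test for both genes, at 1.04 for Dtx1 (adjusted p = 4.55e-20) and 0.52 for Ptcra (adjusted p = 5.42e-08). Neither region overlaps an RBPJ site. Another region of Dtx1 does, and Ptcra has no other region in the table. In the authors' deposited table GSI gave -0.78 ± 0.070 at Qsox2 (a sulfhydryl oxidase, 15036 bp), -0.75 ± 0.065 at Arsi (a sulfatase, 16186 bp), -0.70 ± 0.055 at Aldh1b1 (a mitochondrial aldehyde dehydrogenase, 22609 bp) and -0.69 ± 0.064 at Ptp4a3 (a phosphatase). Rab44 (-0.74 ± 0.083) and Fbxl5 (-0.59 ± 0.077) completed the 8 lowest of at least median base mean. Rab44, Ptp4a3 and Fbxl5 fell by similar amounts with apicidin, at -0.90 ± 0.081, -0.68 ± 0.063 and -0.64 ± 0.074 in the authors' deposited table, and the differences between treatments of -0.16, 0.0090 and -0.04 did not pass the test.

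Some of these genes carry RBPJ at another of their regions. Of 131 genes whose broad promoter fell with GSI, 15 (11.5%) had another region with RBPJ overlap, against 5 of 195 (2.56%) with a rise, 53 of 1273 (4.16%) with no call, and 72 of 1589 (4.53%) in all. For apicidin the shares were 4.90% of the genes with a rise, 4.61% with a fall and 4.24% with no call. No test was made over genes, and genes with more regions have more chances to hold a site.

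The 2 largest gains with GSI in the authors' deposited table were at broad promoters below median base mean, Cd53 (0.91 ± 0.15) and Tuba8 (0.91 ± 0.12). Among those of at least median base mean, Tsc22d3, the glucocorticoid-induced leucine zipper gene, had a log2 fold change of 0.60 ± 0.079 (adjusted p = 1.67e-12) with GSI and -0.19 ± 0.079 with apicidin, not called, in the authors' deposited table. Its difference of -0.79 between apicidin and GSI passed the test (adjusted p = 2.90e-10). Limd2 had 0.59 ± 0.13 with GSI and Lpar6, a lysophosphatidic acid receptor gene, 0.49 ± 0.089 in the authors' deposited table, and neither was called with apicidin. Slc9a9 (0.55 ± 0.064), Coro7 (0.55 ± 0.078), Mrpl1 (0.55 ± 0.082), the phosphatase gene Dusp4 (0.51 ± 0.088) and Ppp1r18 (0.47 ± 0.078) were higher with GSI and with apicidin alike. These 2 sets of calls use the same DMSO libraries.

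The difference between the treatments was tested region by region. With apicidin 186 broad promoters (11.6%) were higher than with GSI and 390 (24.2%) lower, against 3.01% higher and 5.6% lower of all regions, and 10.1% and 21.6% of the 8868 stronger other regions. Side by side, 76 broad promoters were higher with both treatments, 68 lower with both, 48 lower with apicidin and higher with GSI, and 10 higher with apicidin and lower with GSI. In 585 neither treatment gave a call. Joint calls were not counted over all regions or over the 8868, so no share stands beside these numbers. Both sets of calls use the same DMSO libraries. Opposite calls were ranked by the difference over its SE. The first in the authors' deposited table were Arrdc3 (-0.92 ± 0.061 with apicidin, 0.17 ± 0.061 with GSI) and Zc3h6 (-0.93 ± 0.072 and 0.22 ± 0.071). Their GSI calls were weak, with DESeq2 adjusted p of 0.034 and 0.017. Slc7a11, the cystine transporter gene, had -0.84 ± 0.089 with apicidin and 0.39 ± 0.088 with GSI in the authors' deposited table, a difference of -1.23 (adjusted p = 2.10e-19). The mitochondrial ribosomal gene Mrps18b (-0.56 ± 0.066 and 0.43 ± 0.065) and the histone gene Hist1h3c (-0.45 ± 0.051 and 0.32 ± 0.052) were also among the first 6 in the authors' deposited table. Their GSI calls had DESeq2 adjusted p of 2.36e-09 and 1.68e-08.

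Gene lists were then read by function, each gene by its broad promoter of highest base mean. Over the 1589 genes 301 (18.9%) rose and 586 (36.9%) fell with apicidin with a median of -0.09, and 193 (12.1%) rose and 130 (8.18%) fell with GSI with a median of 0.03. Over all regions the medians were 0.0040 and 0.0022. The list counts below are descriptions beside those shares, and they use the DESeq2 calls of the authors' deposited table. Where a list count is given as 0, at most 1 gene of that list reached an unadjusted p under 0.05 in that direction. Genes named only to complete a count of 5 or fewer were chosen after their values were seen.

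Among 25 T-lineage transcription factor genes with a broad promoter, 13 rose and 5 fell with apicidin, with a median log2 fold change of 0.20, and 14 and 2 after centring. Tcf7, the factor that starts the T-cell program, had 0.70 ± 0.057 (adjusted p = 1.92e-32) over 20360 bp in the authors' deposited table. Its relative Lef1 had 0.53 ± 0.058 with apicidin and -0.19 ± 0.061 with GSI, a call in each direction, and Sox13, a factor of gamma-delta T cells, had 0.69 ± 0.073 with apicidin in the authors' deposited table. Gata3 and Ikzf1, regulators of T-cell commitment and lymphoid development, rose with both treatments: in the authors' deposited table Gata3 had 0.33 ± 0.056 with apicidin and 0.35 ± 0.057 with GSI, and Ikzf1 0.36 ± 0.051 and 0.29 ± 0.051. The 5 that fell with apicidin were Zeb1, Elf1, Ets2, Sox4 and Satb1. With GSI 3 of the 25 rose and 4 fell. These factors sat in wide regions, with a median width of 8614 bp against 4357 bp for all broad promoters.

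Of 30 genes of the T-cell receptor and the T-cell surface, 14 rose and 4 fell with apicidin, with a median of 0.14, and 16 and 4 after centring. Besides Cd53, the co-stimulatory receptor gene Cd28 had 0.69 ± 0.076 (adjusted p = 1.63e-17) in the authors' deposited table. The 4 that fell were Rag2, Ptcra, Cxcr4 and Cd24a. With GSI 5 rose and 6 fell. Sla, an adaptor that dampens receptor signals, rose by 0.41 ± 0.049 with GSI in the authors' deposited table, the second smallest p of the list after Ptcra. Rag2, a subunit of the V(D)J recombinase, fell with both treatments, at -0.88 ± 0.12 with apicidin and -0.96 ± 0.12 with GSI in the authors' deposited table, and it was named after its values were seen.

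Of 32 listed cytokine receptor, Jak and Stat genes 12 had a broad promoter without RBPJ. Of 12 cytokine receptor, Jak and Stat genes, 3 rose with apicidin (Il17ra at 0.46 ± 0.067, Il2rg at 0.46 ± 0.088 and Stat5a at 0.32 ± 0.093 in the authors' deposited table) and 1 fell, the median being 0.0084, and 5 rose and 0 fell both after centring and after removing the trend over base mean. With GSI 2 rose, Stat4 (0.26 ± 0.086) and Ifngr1 (0.18 ± 0.065), and 0 fell in the authors' deposited table, the Ifngr1 call being lost after removing the trend. Of 31 listed Notch pathway genes 7 had a broad promoter without RBPJ. With apicidin 3 of them fell, namely Ptcra, Dtx1 and the demethylase gene Kdm5a (-0.29 ± 0.087 in the authors' deposited table), and 0 rose, and after centring 1 fell and 0 rose. With GSI 2 fell, Ptcra and Dtx1, and 0 rose.

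Signal-induced genes had more calls higher than lower with both treatments. Of 13 immediate early and NF-kB genes, 6 rose and 3 fell with apicidin, with a median of 0.23, and 5 rose and 0 fell with GSI, with a median of 0.12. Dusp4, Dusp6 and Dusp10 encode phosphatases that switch off MAP kinases. In the authors' deposited table Dusp10 rose with apicidin (0.62 ± 0.068; GSI 0.08 ± 0.070), Dusp6 with GSI (0.42 ± 0.074; apicidin 0.01 ± 0.074), and Dusp4 with both. Nfkbie, an NF-kB inhibitor gene, had 0.84 ± 0.11 with apicidin and -0.02 ± 0.11 with GSI in the authors' deposited table. Interferon response and MHC class I genes were divided, with 2 of 9 higher and 3 lower with apicidin (3 and 3 after centring, 3 and 2 after removing the trend) and no call with GSI. Usp18 had 0.68 ± 0.092 and Irf7 -0.48 ± 0.12 with apicidin in the authors' deposited table.

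Among 13 splicing and hnRNP genes, 10 fell with apicidin, 0 rose and 3 were not called, with a median of -0.41, and 10 and 0 after centring. Hnrnpa0 had -0.81 ± 0.076 (adjusted p = 1.09e-23), Hnrnpul1 -0.64 ± 0.069 and the splicing factor gene Sf3b1 -0.53 ± 0.064 in the authors' deposited table. With GSI only Srsf3 was called, at 0.18 ± 0.068 in the authors' deposited table, higher, and that call was lost after removing the trend over base mean. Of 7 translation factor genes 5 fell with apicidin and 0 rose, with a median of -0.42, led by Eif4g2 at -0.74 ± 0.077 in the authors' deposited table. After centring 5 fell and 1 rose. These lists also sat at dense regions, with median base means per kb of 415 and 354.

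Ribosomal protein genes did not share that direction. Of 20 with a broad promoter, 3 rose and 4 fell with apicidin, with a median of 0.01, and after centring 5 rose and 3 fell (6 and 3 after removing the trend). Rpl38 had 0.57 ± 0.10 and Rps19 -0.47 ± 0.083 with apicidin, and Rps19 also fell with GSI (-0.38 ± 0.085) in the authors' deposited table. Genes of mRNA decay had 4 of 13 lower and 0 higher with apicidin, but 2 and 2 after centring, and 4 higher and 1 lower with GSI. Zfp36l1, an AU-rich element binding protein gene, had -0.21 ± 0.063 with apicidin and 0.21 ± 0.064 with GSI, and the exonuclease gene Xrn2 -0.22 ± 0.076 and 0.29 ± 0.077, in the authors' deposited table.

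Transcription and chromatin genes were read in 4 lists. Of 11 genes of RNA polymerase II, Mediator and elongation 6 fell and 0 rose with apicidin, with a median of -0.24, and 4 fell and 1 rose after centring. Larp7, a part of the 7SK particle, had -0.73 ± 0.089 and the kinase gene Cdk13 -0.62 ± 0.084 in the authors' deposited table. Aff4, a scaffold of the super elongation complex, rose with GSI (0.37 ± 0.088) in the authors' deposited table. Among the 22 chromatin remodelling and methylation genes 11 fell and 1 rose, with a median of -0.22, and 10 fell and 4 rose after removing the trend over base mean. Besides Ino80 and Arid1b, Arid2 had -0.63 ± 0.056 in the authors' deposited table, and the gene that rose was the demethylase Kdm6b. Of 12 acetyltransferase and bromodomain genes 7 fell and 0 rose, with a median of -0.24, and 4 fell and 1 rose after removing the trend over base mean. Kat2b, an acetyltransferase gene, had -0.37 ± 0.061 and Bptf, a bromodomain reader, -0.62 ± 0.089 in the authors' deposited table. Of 12 HDAC and corepressor genes 5 fell and 1 rose, a count that became 3 and 4 after removing the trend over base mean. Ncor1, the corepressor that activates HDAC3, had -0.47 ± 0.067 with apicidin and -0.01 ± 0.067 with GSI in the authors' deposited table. Tle3, a corepressor of the Groucho family, fell with GSI (-0.52 ± 0.087) but was not called with apicidin (0.07 ± 0.084) in the authors' deposited table, and the difference passed the test (0.59, adjusted p = 5.67e-05).

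Among 19 cell cycle genes, 12 fell with apicidin, 2 rose and 5 were not called, with a median of -0.29, and 9 and 2 after centring. Cdc20, an activator of the anaphase-promoting complex, had -0.89 ± 0.090 (adjusted p = 9.41e-21) and the proliferation marker gene Mki67 -0.69 ± 0.084 in the authors' deposited table. The 2 that rose were Ccnd3 (0.60 ± 0.077) and Ccnd1 in the authors' deposited table. With GSI 4 fell and 0 rose, among them Cdk6 (-0.32 ± 0.081) and Ccne2 (-0.33 ± 0.093) in the authors' deposited table. Among 8 cyclin-dependent kinase inhibitor and p53 target genes 3 fell and 1 rose with apicidin. Cdkn2c, an inhibitor of Cdk4 and Cdk6, had -0.81 ± 0.052 over 14134 bp (adjusted p = 3.71e-50), Cdkn1b -0.32 ± 0.047 over 19197 bp, and Ccng2 -0.43 ± 0.089 with apicidin and 0.34 ± 0.089 with GSI in the authors' deposited table.

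Among 13 broad promoters of replication-dependent histone genes, apicidin gave 10 lower, 1 higher and 2 without a call, with a median of -0.33, and 12 rose and 0 fell with GSI, with a median of 0.31. After centring, 7 fell and 1 rose with apicidin. The difference between treatments passed the test for 11 of the 13, lower with apicidin in each. Hist1h2bj, the gene that rose with apicidin, had 0.30 ± 0.11 with apicidin and 0.34 ± 0.11 with GSI in the authors' deposited table, both called higher. Hist1h2bg had -0.48 ± 0.062 with apicidin and 0.30 ± 0.062 with GSI, and Hist1h1b, a linker histone gene, -0.40 ± 0.059 and 0.31 ± 0.060, in the authors' deposited table. The 12 promoters of the Hist1 cluster lie between 21808230 and 23857926 on chromosome 13. Histone genes are near-identical copies set close together, so a region may cover several of them and reads may be shared, and the values of single genes are uncertain.

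Metabolic, proteostasis and survival genes completed the picture. Of 13 cholesterol and lipid synthesis genes 7 fell and 1 rose with apicidin, with a median of -0.27, and 5 and 2 after centring and 4 and 2 after removing the trend over base mean. Idi1 had -0.48 ± 0.079 with apicidin in the authors' deposited table, and no gene of the list was called with GSI. Of 12 proteasome and ubiquitin genes 6 fell and 1 rose with apicidin. After centring, and also after removing the trend over base mean, 4 fell and 1 rose. With GSI 2 of the 12 rose and 1 fell. Ubb, a polyubiquitin gene, had 0.26 ± 0.070 with GSI in the authors' deposited table. Heat shock genes numbered 5, of which 2 fell and 0 rose with apicidin (Atf5 at -0.68 ± 0.066 and Dnajc3 at -0.20 ± 0.076) in the authors' deposited table, and 1 fell and 1 rose after centring. Of 4 oxidative phosphorylation genes 2 fell with apicidin (Uqcrh at -0.58 ± 0.080 and Ndufs1 at -0.33 ± 0.098) in the authors' deposited table, and 1 fell after centring. None of the 8 apoptosis genes was called with apicidin, although 2 rose after centring, and with GSI the death receptor gene Fas (0.23 ± 0.080) and its inhibitor gene Cflar (0.17 ± 0.058) rose in the authors' deposited table, both calls being lost after removing the trend over base mean. Of the longer lists of genes of other cell types, Gzma (natural killer and innate lymphoid) and Pdgfrb (fibroblast and epithelial) had a broad promoter, and Pdgfrb had 0.60 ± 0.11 with apicidin in the authors' deposited table.

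**Figure D4:**
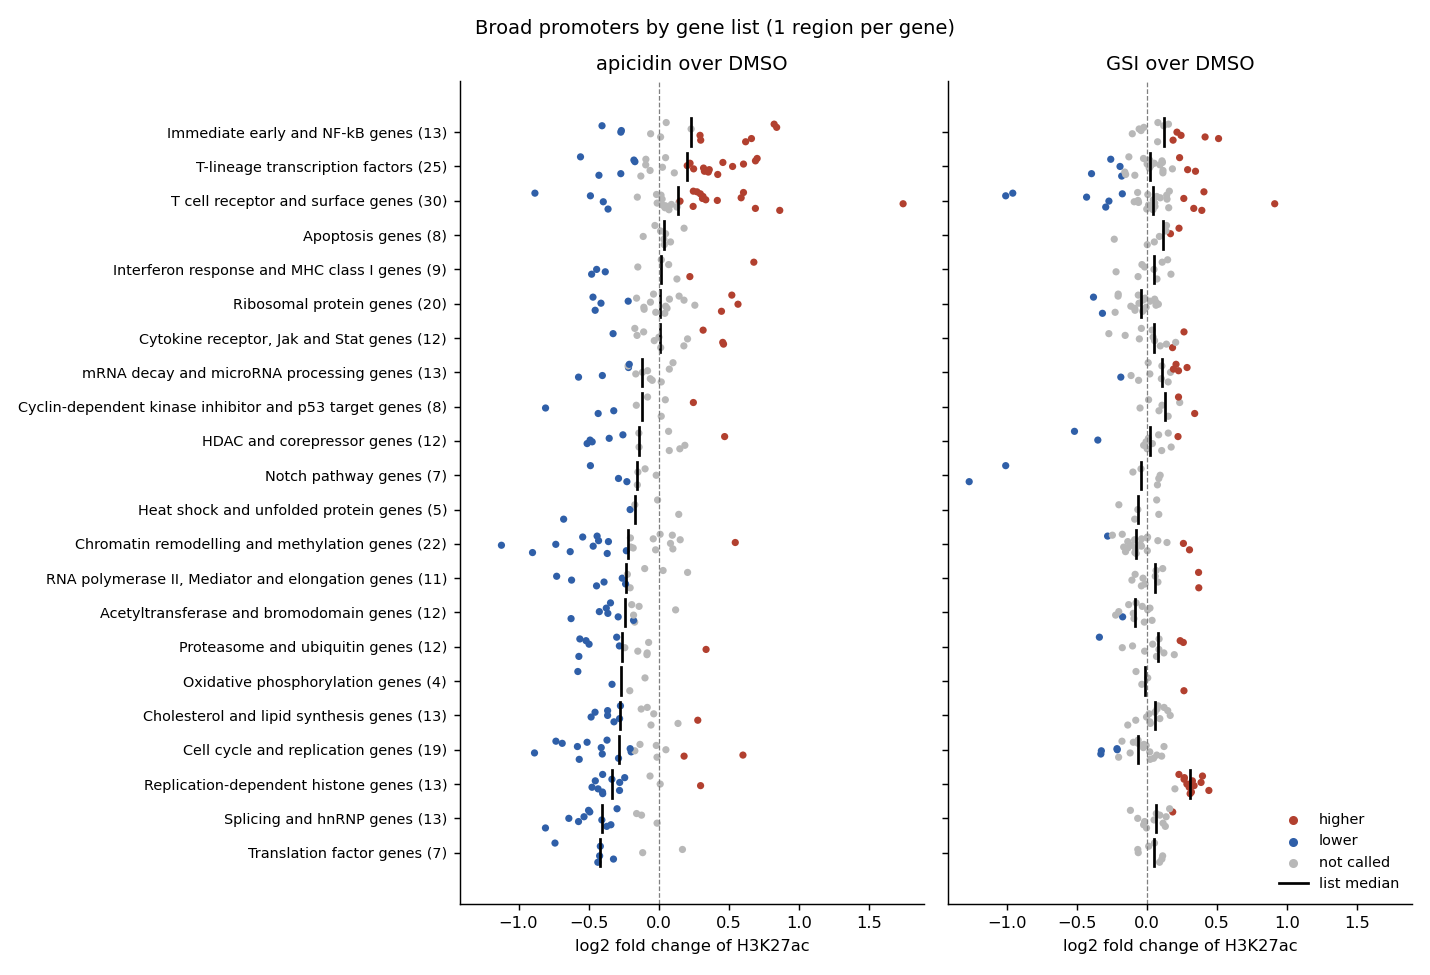
Log2 fold change over DMSO (horizontal axis) of broad promoters in 22 gene lists with at least 4 of them, with apicidin at left and GSI at right. Each point is a gene (red higher, blue lower, grey not called), bars are list medians, and the number of genes stands in brackets. With apicidin the medians run from 0.23 for immediate early and NF-kB genes down to -0.42 for translation factors, and histone genes stand at -0.33 with apicidin and 0.31 with GSI.

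The widest and strongest broad promoters had small errors and changes of various sizes. Ptprc, the CD45 gene, had the widest region, 39083 bp at chr1:140038302-140077384, with 0.30 ± 0.059 with apicidin and -0.18 ± 0.059 with GSI in the authors' deposited table, a call in each direction. Nck2, an adaptor of receptor signalling, rose by 0.55 ± 0.047 with apicidin over 33059 bp, and Vamp1, Ict1 and Sept9 rose by 0.24 ± 0.048, 0.28 ± 0.050 and 0.24 ± 0.058 in the authors' deposited table. Fyb, an adaptor of T-cell adhesion, had the highest base mean of all broad promoters, 12198. Its log2 fold changes were -0.08 ± 0.047 with apicidin, not called, and 0.13 ± 0.048 with GSI, called higher, in the authors' deposited table. Ly6e, with a base mean of 11583, had -0.0043 ± 0.052 and 0.06 ± 0.053, neither called, in the authors' deposited table.

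Several genes have more than 1 broad promoter, and these did not always change alike. Arpp21 has 3. Its 28519 bp region had -0.13 ± 0.048 with apicidin, called lower, while its 4081 bp and 3032 bp regions, both on the same side of it, had 0.65 ± 0.12 and 0.42 ± 0.11, both called higher, in the authors' deposited table. Runx1 rose at both of its promoters, with 0.41 ± 0.11 and 0.46 ± 0.070, and so did Sept9, with 0.47 ± 0.074 at the narrower region, in the authors' deposited table. Of the 2 Satb1 promoters, the wider was lower (-0.17 ± 0.062) and the other not called (0.17 ± 0.069) with apicidin in the authors' deposited table. At Cbfa2t3, a corepressor gene, the 8720 bp promoter fell with GSI (-0.59 ± 0.080) and the 4318 bp promoter was not called (-0.12 ± 0.11) in the authors' deposited table. These genes were named after their values were seen.

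Neighbouring broad promoters were compared as pairs. Of 275 such pairs at most 50 kb apart, both were called with apicidin in 85, in the same direction in 61 and in opposite directions in 24. With GSI both were called in 20 pairs, alike in 18 and opposite in 2. The pairs include promoters of the same gene, such as those of Evi2b, 163 bp apart. Several of the alike GSI pairs lie in the Hist1 cluster, where reads may be shared, such as Hist1h3c and Hist1h4b, 95 bp apart. These counts stand beside the 311 higher and 589 lower calls with apicidin and the 195 and 131 with GSI over all broad promoters, and no test was made. An example, chosen after its values were seen, is the Gimap cluster of lymphocyte GTPases on chromosome 6. All 5 of its broad promoters rose with apicidin, with 0.77 ± 0.067 at Gimap9, 0.92 ± 0.12 at Gimap6, 1.00 ± 0.10 at Gimap7, 1.25 ± 0.085 at Gimap1 and 0.92 ± 0.12 at Gimap5 in the authors' deposited table. With GSI 3 of the 5 rose. Opposite neighbours also occurred: Sema4a had 1.18 ± 0.11 with apicidin where its neighbour Pmf1, 39929 bp away, had -0.51 in the authors' deposited table.

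The other regions of the same genes were read by the call of the broad promoter. Genes whose broad promoter rose with apicidin had 3295 other regions, of which 16.3% were higher and 3.64% lower, with a median log2 fold change of 0.24. Where the broad promoter fell, 5.73% of 3873 other regions were higher and 11.5% lower, with a median of -0.02, against 9.69% higher and 14.1% lower of all regions, so both shares lay below those of all regions. Where it was not called, 9.33% of 5585 were higher and 6.16% lower, with a median of 0.09. With GSI, for a risen broad promoter 15.5% of 573 tested other regions were higher and 2.27% lower, and for a fallen one 1.45% of 551 were higher and 22.0% lower. For a broad promoter with no GSI call 4.94% were higher and 6.50% lower, against 6.62% and 7.17% of all tested regions. The other regions are much weaker, with median base means of about 46.2 to 47.6 for apicidin. At Slc9a9 13 of 19 other regions rose with apicidin and 0 fell, and at Dtx1 2 of 4 tested other regions fell with GSI. All regions are compared over the same libraries, so these values are a description and no test was made.

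**Figure D5:**
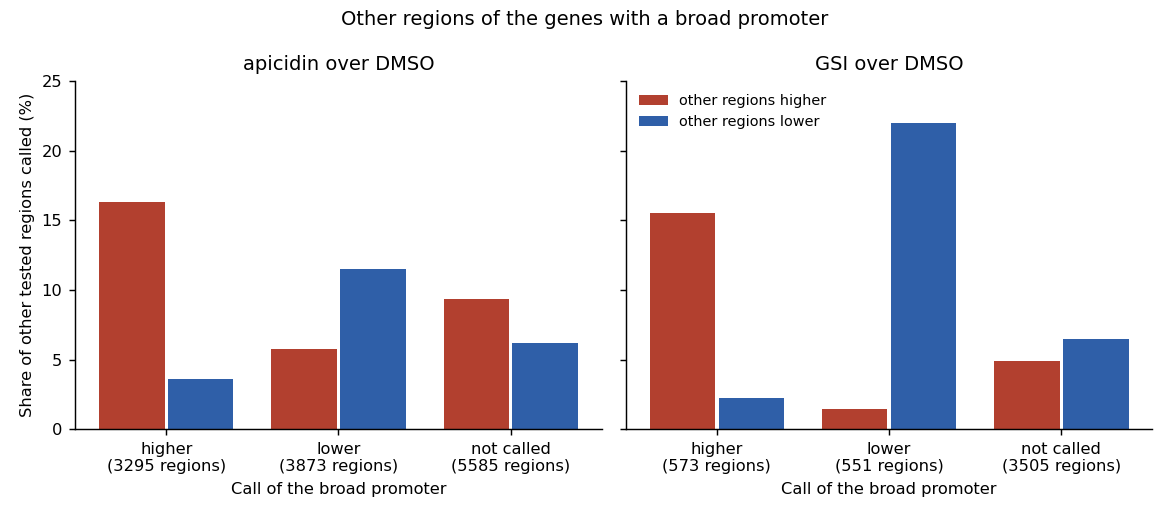
Share of the other tested regions of a gene that were called higher (red) or lower (blue), in percent, by the call of the gene's broad promoter (horizontal axis), with apicidin at left and GSI at right. With GSI 22.0% of the other regions were lower where the broad promoter was lower, against 2.27% where it was higher.

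The 3000 bp limit cuts a continuous range of widths. Just inside it lay the promoters of Smek2 (3002 bp), Cers6 (3003 bp) and Usp49 (3003 bp), with apicidin log2 fold changes of -0.77 ± 0.092, -0.25 ± 0.10 and 0.06 ± 0.093 in the authors' deposited table. Just outside lay Nfil3 (2996 bp), Tmem147 (2996 bp) and Fyco1 (2991 bp), with 0.18 ± 0.095, -0.31 ± 0.10 and -0.09 ± 0.085 there.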

How the data were processed

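Beko cells under 3 treatments gave 2 H3K27ac ChIP-seq libraries each. Per the submitters' processing notes, deepTools, SAMtools, Bowtie2 and FastQC were used on build mm9, with no version stated. Region caller, read counter and use of inputs: not given in the sources used here. All values come from the authors' deposited table of 56342 regions, with, per the file headers, DESeq2's columns for each treatment. The deposited base mean is a signal, the average of the authors' normalised read counts. The log2 fold changes, their SEs, the Wald scores, the p-values and the adjusted p-values are deposited as the authors computed them. The deposited score equalled fold change over SE within 0.175%, and Benjamini-Hochberg adjustment of the p-values was recomputed within 1.03e-06.

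From these, calls were counted at an adjusted p under 0.05. Apicidin was compared with GSI region by region, dividing the difference in log2 fold change by the root of the summed squared SEs. The two-sided p came from the normal distribution and was adjusted by Benjamini-Hochberg over 56342 regions. The procedure was tested on simulated data with independent errors and no GSI change, a setting without shared DMSO libraries. The shared DMSO libraries make this SE an upper bound. The count test planned for tables with values per library could not be run. Python 3.11.15, pandas 2.3.3, numpy 2.4.6, scipy 1.17.1 and matplotlib 3.10.9 were used. The intervals cover the deposited SE only.

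The members, the 28 gene lists and the tests were chosen with earlier results of these data known. Named genes are, among broad promoters, the 8 highest and 8 lowest called changes per treatment at or above median base mean. Also named are the 6 widest, the 6 of highest base mean and the 6 opposite calls of largest difference over its SE. Up to 3 (apicidin) and 2 (GSI) genes of smallest p per list, and the 3 regions nearest 3000 bp on each side, complete the rule. The symbols of 2 broad promoters are written as dates in the table and were kept so. Some genes that this rule names are not reported here. Promoter sequences are from RefSeq (GRCm38.p6).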

Additional observations from a re-analysis of the deposited data

How the results depend on the processing

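Counts below are higher and lower broad promoters, in that order. A width minimum of 2000 bp enlarged the set to 3051 regions. Of these, 1240 (40.6%) were lower with apicidin and 774 (25.4%) lower with apicidin than with GSI. The shares at 3000 bp were 36.6% and 24.2%. A minimum of 5000 bp left 618 regions with 175 and 170 for apicidin, 114 and 72 for GSI and 118 and 118 for the difference, and turned the sign of the apicidin median to 0.0084. Subtracting the trend over base mean gave 504 and 348 for apicidin and 330 and 202 for the difference, with a median of 0.0529, and centring gave a median of 0.0098. Members of at least median base mean (805) held 154 and 358 for apicidin, 71 lower with GSI and 99 higher for the difference. Fewer regions were counted there. As shares, 19.1% were higher and 44.5% lower with apicidin, against 19.3% and 36.6% of all broad promoters. A log2 change of at least 0.5 left 105 and 174 for apicidin, 22 and 35 for GSI and 97 and 202 for the difference. Shares of all regions at that limit were not counted. An adjusted p under 0.01 left 129 higher with GSI. The other settings moved each of the 6 counts by less than 1.5 times. The GSI median, 0.0259 as deposited, lay between 0.0115 and 0.0442 under the alternatives. Those moves are under the median SE of single regions, 0.088, a wide limit for a median of this size. Of the 372 named values, none changed sign with a call under any setting run for them; 18 lost and 11 gained a call on centring, and 37 and 15 on subtracting the trend. No paired analysis was possible because the table holds no value per library, so leaving out a library, a replicate block and a second count tool were not run. Depth per library is unknown, and untested weak regions (base mean under 72.1 for GSI) include no broad promoter.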
